A study of Homo sapiens with 6 samples.

Results

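The core spliceosome was examined in HCT116 cells through 47 genes that encode Sm and LSm ring proteins, proteins specific to the U1 and U2 particles, subunits of SF3a and SF3b, and pre-mRNA processing factors. The members were the protein-coding rows whose symbol was SNRP followed by a letter or number, LSM followed by a number, SF3A or SF3B followed by a number, or PRPF followed by a number, and they made up 47 of 20048 protein-coding rows and of 62710 rows in all. By role they comprised 8 Sm genes, 9 LSm genes (LSM1 to LSM8 and LSM10), 4 further genes for LSm-domain proteins, 4 SNRP genes of the U1 and U2 particles, 9 SF3 genes and 13 PRPF genes. The comparison asked whether the small Sm and LSm genes and the large SF3 and PRPF factors differed in level between the groups, with 17 genes called small and 20 called large. SF3B5 and SF3B6, which encode small proteins, were kept apart from both classes together with the U1 and U2 SNRP genes and the further LSm-domain genes, 10 genes in all.

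HCT116 is a human colon cancer cell line. The 3 sh-NC libraries came from HCT116 cells that carried a scrambled hairpin as the negative control, and the 3 sh-IGF2BP3 libraries came from HCT116 cells that carried 1 hairpin against IGF2BP3, an RNA-binding protein of the IGF2 mRNA-binding family. Per the study's methods, cells of both groups were infected with lentivirus and selected with puromycin as stable lines, so virus and selection were common to all 6 libraries. The effect of the knockdown and the effect of this single hairpin cannot be told apart, and no label says that the replicates came from separate cultures, so the p-values measure the spread between these 6 libraries only.

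The spliceosome removes introns from pre-mRNA. Its U1, U2, U4 and U5 particles are each built around a small nuclear RNA that is held in a ring of Sm proteins, while U6 RNA carries a related ring of LSm proteins at its end. U1 marks the start of the intron, SF3a and SF3b anchor U2 at the branch point, and the PRPF proteins act mainly in the tri-snRNP of U4, U6 and U5 and in the steps that activate the catalytic centre. A further LSm ring, which holds LSM1 in place of LSM8, binds mRNA in the cytoplasm and takes part in its decay.

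The libraries held 16146718 to 23576469 counts, and no pair within a group agreed within sampling noise. IGF2BP3 was measured at 90.3, 84.1 and 70.3 counts scaled to library size (CPM) in sh-NC 1, 2 and 3 and at 60.2, 52.3 and 55.8 CPM in sh-IGF2BP3 1, 2 and 3. The groups did not overlap, but the log2 fold change of −0.54 ± 0.18 (SE, n = 3 per group) did not pass adjustment over all genes (edgeR adjusted p = 0.126). The mitochondrial share of counts was 6.12%, 7.32% and 7.76% in sh-NC and 5.24%, 5.47% and 5.89% in sh-IGF2BP3, without overlap, and its part in the group differences was not tested. The libraries also differed in how expression depended on the GC content of the transcript: per 10 percentage points of GC, log2 CPM changed by −0.06, −0.22 and −0.20 in the sh-NC libraries and by 0.36, 0.14 and −0.01 in the sh-IGF2BP3 libraries, relative to the mean of all 6. The main fold changes are therefore given also after the trends with GC content and gene length were removed from each library, and that of IGF2BP3 was then −0.22. All 8 colon epithelial marker genes examined had counts, with summed levels of 2217 to 3549 CPM in sh-NC and 3040 to 3954 CPM in sh-IGF2BP3 libraries. Only 6 of them had enough counts to be tested, and 4 had log2 fold changes above 0 and 2 below. The values ran from 0.80 for KRT19 to −0.47 for CDH1, which were 0.28 and −0.40 after the trends were removed. The 5 leukocyte markers summed to at most 1.23 CPM and 3 endothelial markers to at most 4.41 CPM. The sum of 4 fibroblast markers was 26.8 to 51.8 CPM in sh-NC and 28.7 to 58.6 CPM in sh-IGF2BP3, with LUM and COL1A2 at 0 counts. Nearly all of this sum came from COL1A1, the only fibroblast marker with enough counts to be tested. The part of these markers in the results was not tested.

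Most of the core spliceosome genes had higher average levels in the sh-IGF2BP3 libraries, and the small Sm and LSm genes accounted for most of the larger differences. Of the 47 genes, 46 had enough counts to be tested, and SNRPN had 0 counts in every library. The fitted log2 fold change was above 0 for 35 genes and below 0 for 11, with a median of 0.32, beside a median of −0.01 over 16753 genes tested, of which 49% were above 0. No member passed an edgeR adjusted p of 0.05 with a 1.5-fold change, and 0% of all genes did, the lowest adjusted p of any gene being 0.0563 and that of any member 0.103. At an unadjusted p under 0.05, 19 members were higher and 1 was lower, beside 13.6% of all genes higher and 8.54% lower. The CPM values of the groups did not overlap for 11 members that were higher and 2 that were lower, beside 13.2% and 11% of all genes. By the same rule DESeq2 called 4 members higher, SNRPB, SNRPF, LSM4 and LSM7, and 0 lower, beside 4.48% of all genes with an adjusted p higher and 1.06% lower. After the GC and length trends were removed, 39 of 46 members were above 0 with a median of 0.29, and 16 were higher and 0 lower at an unadjusted p under 0.05, beside 6.86% and 3.59% of all genes. In extracts of a whole culture, a change in the RNA of each cell and a change in the share of cells that express a gene cannot be told apart.

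**Figure D1:**
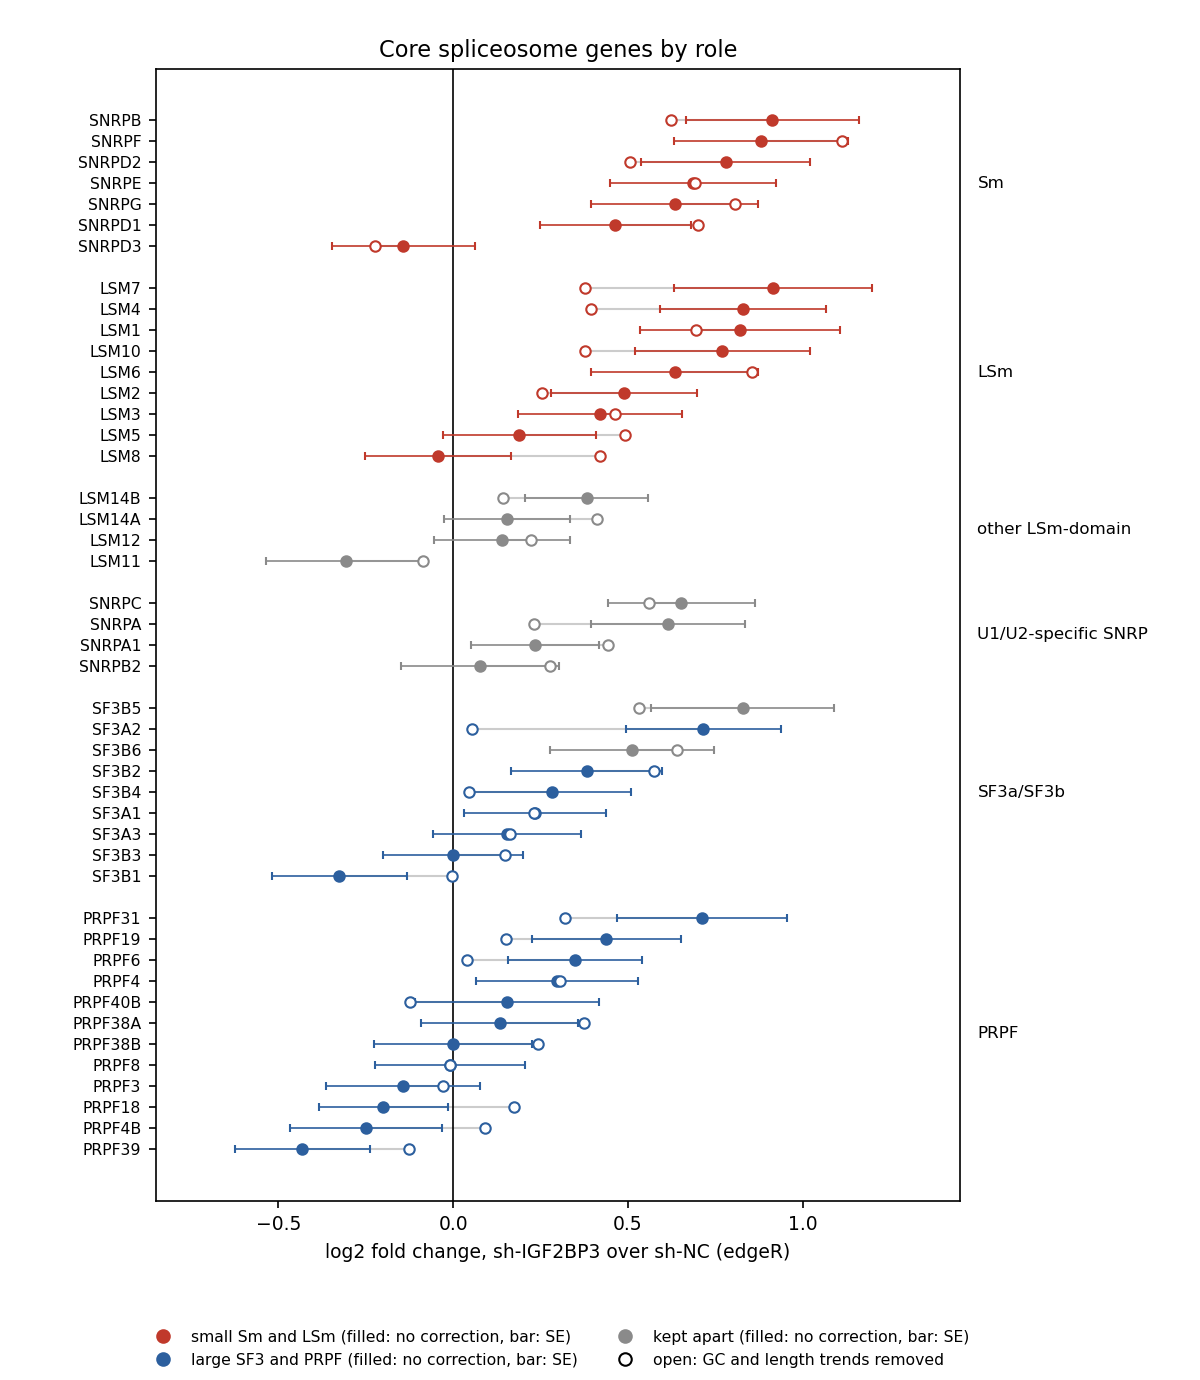
The log2 fold change of sh-IGF2BP3 over sh-NC is plotted for 45 of the 46 tested genes, grouped by role, with filled points and SE bars for the edgeR fit without correction and open points for the fit with the GC and length trends removed. The Sm and LSm genes lie mainly to the right of 0, from −0.14 to 0.92, whereas the PRPF genes spread on both sides, from −0.43 to 0.71.

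The 7 measured Sm genes encode the complete ring of the spliceosomal particles, and 6 of them were higher at an unadjusted p under 0.05, beside 13.6% of all genes. SNRPB (chromosome 20, 2461634 to 2470853, minus strand, GRCh38 here and below), which encodes the SmB proteins, was measured at 112, 85.1 and 57.6 CPM in the sh-NC libraries and at 178, 187 and 115 CPM in the sh-IGF2BP3 libraries. The sh-IGF2BP3 libraries all lay above the sh-NC libraries, although sh-IGF2BP3 3 exceeded sh-NC 1 only narrowly. The log2 fold change was 0.91 ± 0.25 (edgeR adjusted p = 0.103), and 0.62 after the GC and length trends were removed. SNRPF (chromosome 12, 95858952 to 95903828, plus strand), which encodes SmF, was measured at 30.8, 27.6 and 20.9 CPM in sh-NC and at 43.3, 68.3 and 34.4 CPM in sh-IGF2BP3. Again the groups did not overlap, with the highest value in sh-IGF2BP3 2. The log2 fold change of SNRPF was 0.88 ± 0.25 (edgeR adjusted p = 0.105), and at 1.11 it was larger after the trends were removed, the largest corrected value among the members.

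SNRPD2, which encodes SmD2, was measured at 88.3, 71.5 and 55.6 CPM in sh-NC and at 135, 155 and 79.8 CPM in sh-IGF2BP3. Here sh-IGF2BP3 3 lay below sh-NC 1, so the groups overlapped, with a log2 fold change of 0.78 ± 0.24 (edgeR adjusted p = 0.117), and 0.50 after correction. SNRPE, which encodes SmE, was measured at 40.7, 39.9 and 29.9 CPM in sh-NC and at 52.9, 82.5 and 42.6 CPM in sh-IGF2BP3. Its groups did not overlap, and its log2 fold change of 0.69 ± 0.24 (edgeR adjusted p = 0.133) was also 0.69 after the trends were removed. SNRPG and SNRPD1, for SmG and SmD1, had log2 fold changes of 0.63 and 0.46, and 0.81 and 0.70 after correction. SNRPD3, for SmD3, was the exception in the ring, with a log2 fold change of −0.14, and −0.22 after correction, and overlapping groups. A same-strand protein-coding row with 28 counts in all covers 99.8% of the SNRPD3 gene, and how the authors treated reads that fit both rows is not given in the sources used here.

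SNRPN encodes SmN, a close relative of SmB that is best known from brain, and it lies in an imprinted region of chromosome 15 (24823637 to 24978723, plus strand). Its count of 0 in all 6 libraries allows at most 3 counts per library, or 0.186 CPM in the smallest library, and limits cover counting error only. The rows for SNURF and for the protein-coding gene that overlaps SNRPN on the same strand also held 0 counts, so whether SNRPN is silent or its reads were not assigned was not tested. The first 60 coding bases of both genes are shown because their likeness bears on how reads could be shared, with G and C in capitals.

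SNRPB: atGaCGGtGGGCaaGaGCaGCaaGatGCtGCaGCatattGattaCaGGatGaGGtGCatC
SNRPN: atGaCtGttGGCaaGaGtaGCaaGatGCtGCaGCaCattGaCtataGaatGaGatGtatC

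These stretches, read from GENCODE 29 transcripts on GRCh38, were identical at 51 of 60 positions and different at 9.

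The 9 LSm genes, LSM1 to LSM8 of the 2 LSm rings and LSM10, were higher in 8 cases, 6 of them at an unadjusted p under 0.05. At that threshold 13.6% of all genes were higher. LSM4 (chromosome 19, 18306236 to 18323112, minus strand), a subunit of both the nuclear and the cytoplasmic ring, was measured at 110.2, 92.2 and 64.3 CPM in sh-NC and at 184, 180.2 and 109.6 CPM in sh-IGF2BP3. The lowest sh-IGF2BP3 library fell just under the highest sh-NC library, and the log2 fold change was 0.83 ± 0.24 (edgeR adjusted p = 0.108). LSM7 (chromosome 19, 2321520 to 2328611, minus strand), also common to both rings, was measured at 32.4, 21.4 and 15.8 CPM in sh-NC and at 48.1, 55.8 and 27.4 CPM in sh-IGF2BP3. Its log2 fold change of 0.92 ± 0.28 (edgeR adjusted p = 0.117) was the largest of any member before correction. After the trends were removed the values of these GC-rich genes were smaller, 0.40 for LSM4 and 0.38 for LSM7.

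LSM1, which defines the cytoplasmic decay ring, was measured at 18.0, 12.1 and 8.33 CPM in sh-NC and at 22.3, 28.7 and 16.8 CPM in sh-IGF2BP3, with overlap of sh-IGF2BP3 3 and sh-NC 1. Its log2 fold change was 0.82 ± 0.29 (edgeR adjusted p = 0.136), and 0.69 after correction. LSM8, which takes the place of LSM1 in the nuclear ring on U6, had a log2 fold change of −0.04, and 0.42 after correction. With the trends taken from the principal transcripts, LSM1 had 0.70 and LSM8 had 0.06. The genes that distinguish the rings thus had unlike values before correction and by principal transcripts, but the difference between them was not tested. LSM10, which stands in for an Sm subunit in the U7 particle of histone mRNA processing, was measured at 18.7, 16.3 and 11.2 CPM in sh-NC and at 27.6, 31.7 and 19.7 CPM in sh-IGF2BP3. Its groups did not overlap, and its log2 fold change was 0.77 ± 0.25 (edgeR adjusted p = 0.123), and 0.38 after correction. Among the remaining subunits, LSM6, LSM3 and LSM5 had log2 fold changes of 0.63, 0.42 and 0.19, which were larger after correction, 0.86, 0.46 and 0.49, whereas LSM2 had 0.49 and then 0.25.

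**Figure D2:**
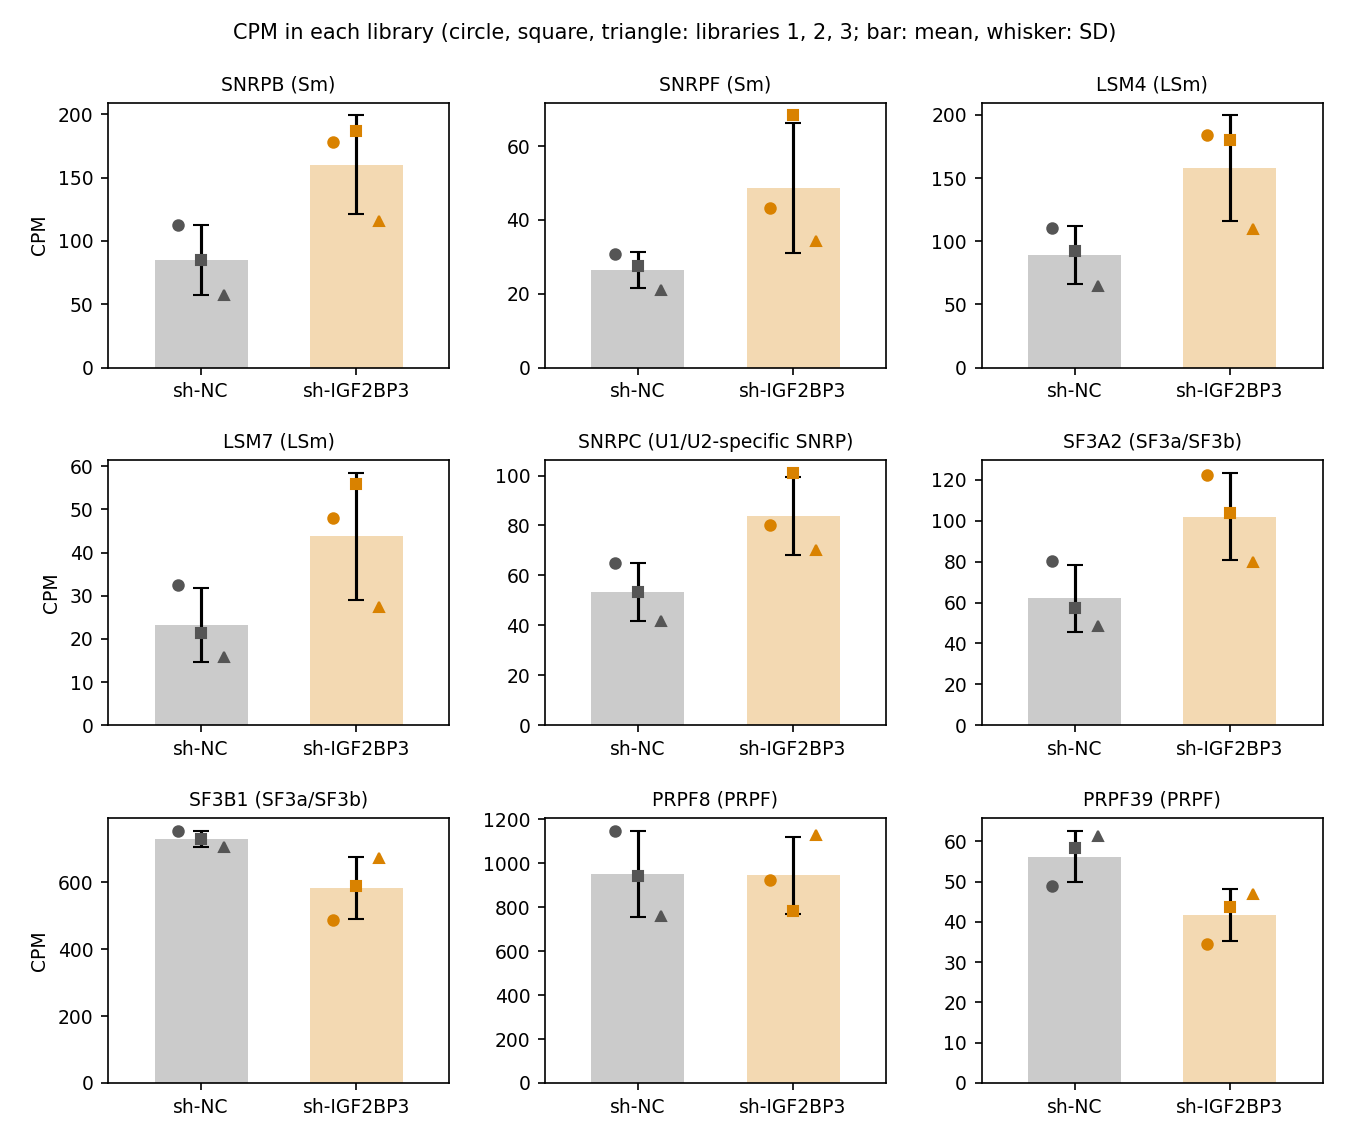
CPM of 9 genes is plotted for each library, with bars for the group mean, whiskers for the SD of 3 libraries and axes that start at 0. SNRPB, SNRPF and SNRPC have no overlap between groups and lie higher in sh-IGF2BP3, LSM4, LSM7 and SF3A2 overlap narrowly, SF3B1 and PRPF39 lie lower without overlap, and PRPF8 covers the same range in both groups.

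Of the 4 further LSm-domain genes, only LSM14B reached an unadjusted p under 0.05 before correction, and only LSM14A after it. LSM14B, which encodes a protein of cytoplasmic mRNA granules, was measured at 69.4, 64.3 and 59.1 CPM in sh-NC and at 87.1, 87.0 and 77.1 CPM in sh-IGF2BP3, with no overlap and a log2 fold change of 0.38 ± 0.18 (edgeR adjusted p = 0.218), and 0.14 after correction. Its paralog LSM14A was measured at 149, 142 and 129.9 CPM in sh-NC and at 137, 174 and 156 CPM in sh-IGF2BP3, with overlapping groups, a log2 fold change of 0.15 and 0.41 after correction. LSM11, the partner of LSM10 in the U7 particle, was measured at 15.7, 21.2 and 22.9 CPM in sh-NC and at 13.7, 17.1 and 17.6 CPM in sh-IGF2BP3. The log2 fold change of LSM11 was −0.31 ± 0.23 (edgeR adjusted p = 0.445), and −0.086 after correction, opposite in sign to that of LSM10. LSM12 was measured at 52.9, 56.5 and 49.1 CPM in sh-NC and at 45.3, 63.8 and 65.6 CPM in sh-IGF2BP3, with a log2 fold change of 0.14 ± 0.19 (edgeR adjusted p = 0.696), and 0.22 after correction. Its pseudogene row LSM12P1 held 27.6% as many counts as LSM12 itself, with 537, 423 and 149 counts in sh-NC and 196, 137 and 265 in sh-IGF2BP3, so the level of LSM12 is uncertain.

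The 4 genes for proteins specific to U1 or U2 all had log2 fold changes above 0, before and after correction, and none passed the adjusted test. The U1 genes had larger values than the U2 genes before correction, but after it SNRPA, of U1, lay below both U2 genes. With the trends taken from the principal transcripts, SNRPA had 0.21 and lay between the U2 genes SNRPA1, at 0.12, and SNRPB2, at 0.31. SNRPC (chromosome 6, 34757505 to 34773857, plus strand), which encodes the C protein of U1 at the 5′ splice site, was measured at 65.2, 53.2 and 41.7 CPM in sh-NC and at 80.4, 101 and 70.4 CPM in sh-IGF2BP3. The groups did not overlap, and the log2 fold change was 0.65 ± 0.21 (edgeR adjusted p = 0.122), and 0.56 after correction. SNRPA, which encodes the A protein of U1, was measured at 70.2, 56.8 and 39.9 CPM in sh-NC and at 95.03, 91.5 and 68.9 CPM in sh-IGF2BP3, with narrow overlap and a log2 fold change of 0.61 ± 0.22 (edgeR adjusted p = 0.139), and 0.23 after correction. SNRPA1, for the A′ protein of U2, was measured at 55.4, 51.6 and 43.3 CPM in sh-NC and at 57.1, 64.2 and 55.6 CPM in sh-IGF2BP3, and the groups were separated by a small gap. Its log2 fold change of 0.23 ± 0.18 did not pass the test (edgeR adjusted p = 0.462), and was 0.44 after correction. Its pseudogene row held 9.78% as many counts, and PCSK6, with 1924 counts, covers 39.9% of the gene on the same strand. SNRPB2, for the B″ protein of U2, was measured at 65.1, 53.5 and 39.6 CPM in sh-NC and at 43.6, 71.2 and 52.1 CPM in sh-IGF2BP3, with a log2 fold change of 0.08 ± 0.23 (edgeR adjusted p = 0.864), and 0.28 after correction. The difference between the U1 and the U2 genes was not tested.

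Within SF3a and SF3b, the genes for the smallest proteins and SF3A2 had the largest values, and SF3B1 differed in the opposite direction. SF3B5, which encodes the smallest SF3b subunit, was measured at 33.0, 26.9 and 16.3 CPM in sh-NC and at 51.9, 51.7 and 31.6 CPM in sh-IGF2BP3. Only sh-IGF2BP3 3 fell within the sh-NC range, and the log2 fold change was 0.83 ± 0.26 (edgeR adjusted p = 0.12), and 0.53 after correction. SF3B6, whose protein lies close to the branch point adenosine, was measured at 34.0, 31.6 and 28.6 CPM in sh-NC and at 41.9, 61.8 and 30.7 CPM in sh-IGF2BP3. Its log2 fold change was 0.51 ± 0.23 (edgeR adjusted p = 0.217), and 0.64 after correction. SF3A2 (chromosome 19, 2236824 to 2248655, plus strand), an SF3a subunit, was measured at 80.4, 57.4 and 48.5 CPM in sh-NC and at 122, 104 and 79.7 CPM in sh-IGF2BP3. Its log2 fold change of 0.72 ± 0.22 (edgeR adjusted p = 0.117) was 0.05 after the trends were removed, and its transcript had the highest GC content of all members, 66.6%.

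SF3B1 (chromosome 2, 197388515 to 197435079, minus strand), the scaffold subunit that binds the branch site and is recurrently mutated in cancers, was measured at 754, 730.0 and 706 CPM in sh-NC and at 486, 588 and 674 CPM in sh-IGF2BP3. The sh-IGF2BP3 libraries all lay below the sh-NC libraries, yet the log2 fold change of −0.33 ± 0.19 did not pass the test (edgeR adjusted p = 0.328) and was −0.0037 after correction. SF3B2 was measured at 478, 371 and 267 CPM in sh-NC and at 484, 471 and 498 CPM in sh-IGF2BP3, with a log2 fold change of 0.38 ± 0.21 (edgeR adjusted p = 0.306). Its corrected value was 0.57 with the GC content of the longest transcript, 45.7%, and 0.20 with that of the principal transcript, 55.7%. The other 4 SF3 genes, SF3B4, SF3A1, SF3A3 and SF3B3, had log2 fold changes of 0.28, 0.23, 0.15 and −0.00046, and 0.05, 0.23, 0.16 and 0.15 after correction.

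The 13 PRPF genes were divided, with 7 above and 6 below 0 and a median of 8.9e-05, but after correction 9 were above 0 and the median was 0.10. PRPF31, a U4/U6 protein whose mutation causes retinal degeneration, was measured at 63.8, 41.5 and 31.6 CPM in sh-NC and at 77.7, 87.6 and 58.7 CPM in sh-IGF2BP3. Its groups overlapped narrowly, with a log2 fold change of 0.71 ± 0.24 (edgeR adjusted p = 0.13), and 0.32 after correction. PRPF19, the ubiquitin ligase that helps to activate the spliceosome, was measured at 244, 174 and 137 CPM in sh-NC and at 254, 247 and 249.9 CPM in sh-IGF2BP3. The sh-IGF2BP3 libraries were nearly equal while the sh-NC libraries were spread, and the log2 fold change was 0.44 ± 0.21 (edgeR adjusted p = 0.238), and 0.15 after correction. PRPF6, which bridges the particles of the tri-snRNP, was measured at 150.2, 116 and 103 CPM in sh-NC and at 164, 156 and 149.9 CPM in sh-IGF2BP3, with a log2 fold change of 0.35 ± 0.19 (edgeR adjusted p = 0.294), and 0.04 after correction.

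PRPF39 (chromosome 14, 45084107 to 45116282, plus strand), a U1-associated factor, was measured at 49.0, 58.4 and 61.4 CPM in sh-NC and at 34.6, 43.8 and 46.9 CPM in sh-IGF2BP3. It was the only member that was lower at an unadjusted p under 0.05, with no overlap, a log2 fold change of −0.43 ± 0.19 (edgeR adjusted p = 0.206) and −0.13 after correction. PRPF8 (chromosome 17, 1650629 to 1684867, minus strand), the U5 protein that holds the catalytic centre, was measured at 1148, 943 and 759 CPM in sh-NC and at 924, 781 and 1128 CPM in sh-IGF2BP3. The groups covered the same range, and the log2 fold change was −0.01 ± 0.21 (edgeR adjusted p = 0.984). Among the other PRPF genes, PRPF4, PRPF40B, PRPF38A and PRPF38B had log2 fold changes of 0.30, 0.15, 0.13 and 8.9e-05, and 0.31, −0.12, 0.38 and 0.24 after correction. PRPF3, PRPF18 and PRPF4B had −0.14, −0.20 and −0.25, and −0.029, 0.17 and 0.09 after correction, so PRPF40B, PRPF18 and PRPF4B changed sign. With the trends taken from the principal transcripts, however, PRPF18 had −0.058 and kept its sign. The gene TUT4, with 11294 counts, covers 77.3% of PRPF38A on the opposite strand, and whether reads were assigned by strand is not given in the sources used here.

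Compared by class, 14 of 16 tested small Sm and LSm genes were above 0 and 12 reached an unadjusted p under 0.05, all higher. Of the 20 large factors, 12 were above 0 and 8 below, with 2 higher (PRPF31 and SF3A2) and 1 lower (PRPF39) at an unadjusted p under 0.05. At that threshold 13.6% of all genes were higher and 8.54% lower, so by these counts the large factors did not stand out from all genes. The median log2 fold change was 0.66 for the small and 0.14 for the large class, a difference of 0.52. Once corrected for GC content and length the medians were 0.50 and 0.13, a difference of 0.37, beside 0.01 over all genes. Above 0 were then 15 of 16 small and 15 of 20 large genes, beside 8616 of 16753 genes tested. At an unadjusted p under 0.05, 10 small and 1 large gene, SF3B2, were then higher, beside 6.86% of all genes. With the trends taken from the principal transcripts, a choice added after the data were seen, the medians were 0.44 and 0.11. The small genes encode proteins of 76 to 231 residues and the large factors proteins of 312 to 2335 residues, and the median principal transcript was 1229.5 bases for the small and 2973.5 bases for the large class, so length and class moved together. No p is given for a difference between sets of genes, since the genes share the same 6 libraries.

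The libraries did not contribute equally to the difference between the classes. The median deviation of the small genes from their mean over all libraries was −0.05, −0.21 and −0.63 on the log2 CPM scale in the sh-NC libraries and 0.28, 0.66 and −0.06 in the sh-IGF2BP3 libraries. For the large factors it was 0.21, −0.10 and −0.30 in sh-NC and −0.12, 0.12 and 0.18 in sh-IGF2BP3. Small minus large was −0.26, −0.11 and −0.33 in sh-NC and 0.40, 0.54 and −0.23 in sh-IGF2BP3, so sh-IGF2BP3 1 and 2 stood above every sh-NC library and sh-IGF2BP3 3 lay among them. Counted by gene, 13 of 16 small genes in sh-IGF2BP3 1, 15 in sh-IGF2BP3 2 and 7 in sh-IGF2BP3 3 exceeded all sh-NC libraries, beside 35.1%, 33.3% and 24.5% of all genes. Among the 20 large factors these counts were 6, 4 and 6. Without sh-IGF2BP3 3 the difference between the class medians was 0.82, and without sh-IGF2BP3 2 it was 0.30. The number of members called, 0 in edgeR with all 6 libraries, also changed when 1 library was left out. Without sh-NC 1, edgeR called 15 members higher, 9 of them small and 3 large, and 0 lower, in a fit that called 1739 genes higher and 985 lower of 17379.

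**Figure D3:**
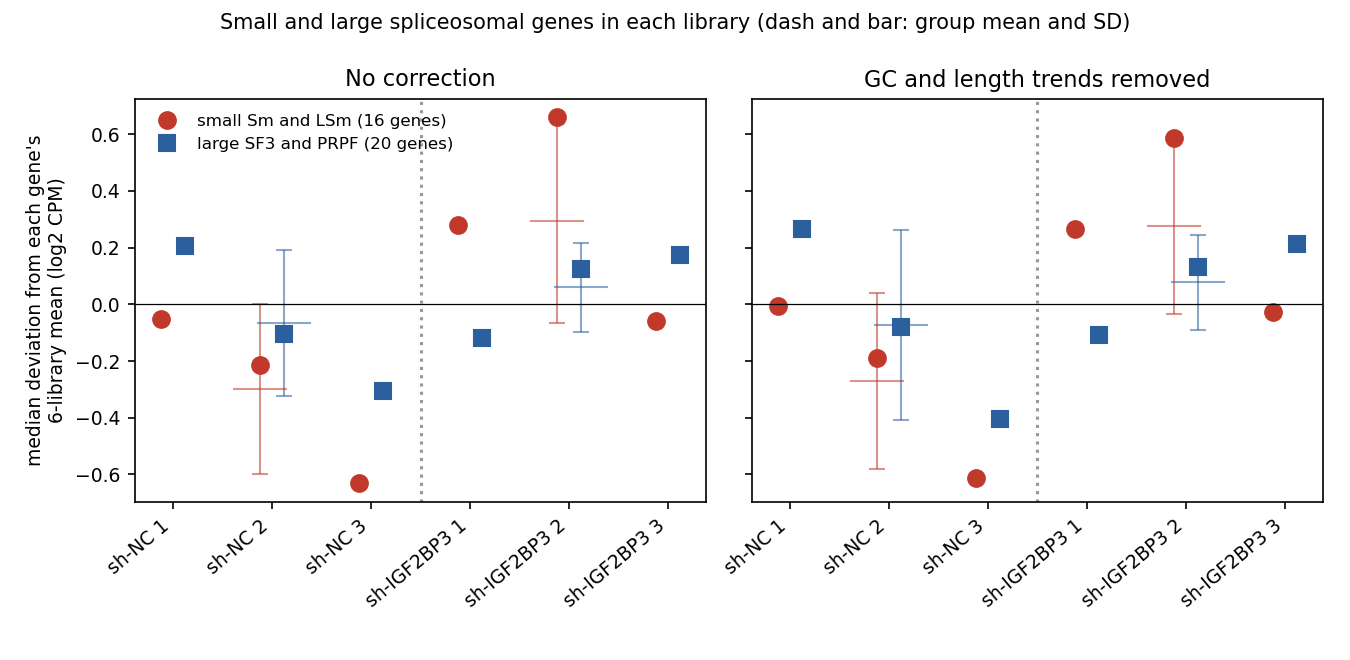
The median deviation of log2 CPM from each gene's mean over 6 libraries is plotted for the small (circles) and large (squares) classes in each library, without correction on the left and with the GC and length trends removed on the right, and the dash and bar give the group mean and SD of 3 libraries. The small class lies at 0.28 and 0.66 in sh-IGF2BP3 1 and 2 without correction, above every sh-NC library, but at −0.06 in sh-IGF2BP3 3.

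Fold changes of the members varied with GC content and with length before correction. Across the 46 genes, Spearman's rho between the log2 fold change and the GC content of the longest transcript was 0.53, and across the 20 large factors it was 0.78. With the gene length behind the FPKM values, rho across the 46 genes was −0.74 before and −0.41 after correction. Removal of the length trend alone left class medians of 0.52 and 0.14, a difference of 0.38. These are values across genes measured in the same libraries, and genes are not independent replicates. Among the large factors, the median log2 fold change was 0.32 for 8 genes with at least 50% GC and −0.07 for 12 genes below that, and after correction it was 0.05 and 0.16. Among the small genes it was 0.80 for 8 GC-rich and 0.55 for 8 GC-poor genes before correction, and 0.39 and 0.70 after it, so the small class lay higher than the large class at either GC content. The part of GC content and length in the remaining difference was not tested.

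The starts of 3 coding sequences are shown because they lie toward the ends of this range, with G and C in capitals. SNRPF and SF3B1 are GC-poor and SF3A2 GC-rich over the whole coding sequence, at 41.4%, 43.0% and 67.6%.

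SNRPF: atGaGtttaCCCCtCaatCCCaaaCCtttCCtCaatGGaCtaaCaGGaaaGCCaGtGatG
SF3B1: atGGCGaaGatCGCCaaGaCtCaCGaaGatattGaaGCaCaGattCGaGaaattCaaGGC
SF3A2: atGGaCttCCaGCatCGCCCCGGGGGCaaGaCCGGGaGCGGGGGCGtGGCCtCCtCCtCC

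Of the 60 bases shown, 27 were G or C in SNRPF and SF3B1 and 44 in SF3A2. The GC-poor SNRPF kept a log2 fold change of 1.11 after correction, whereas the GC-rich SF3A2 had 0.05 and SF3B1 had −0.0037.

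**Figure D4:**
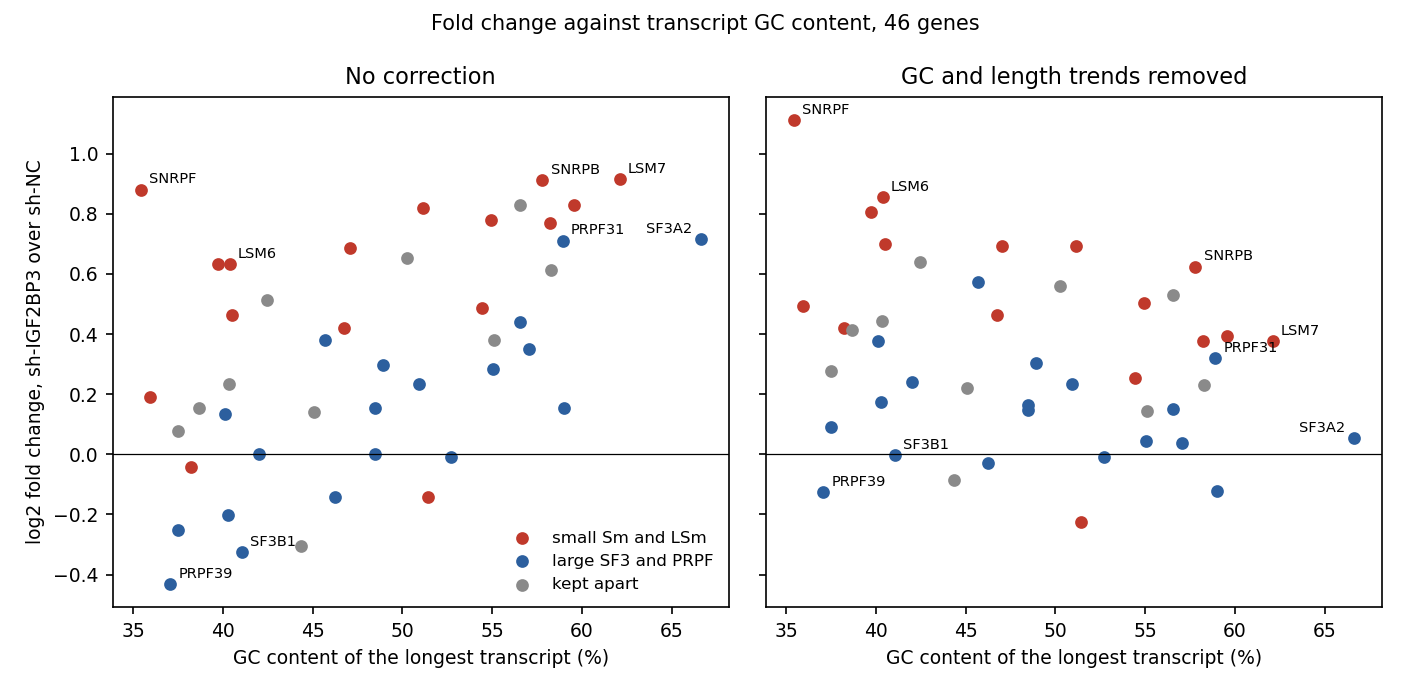
The log2 fold change of 45 genes is plotted against the GC content of the longest transcript, in percent, without correction on the left and with the GC and length trends removed on the right, coloured by class. On the left the large factors run upward with GC content from PRPF39 at −0.43 to SF3A2 at 0.72, and on the right SF3A2 lies at 0.05 while SNRPF lies at 1.11.

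Per length, the members differed widely in level. The length here is the fixed gene length behind the deposited FPKM values, which can far exceed that of the principal transcript (17309 against 1305 bases for LSM8), so the order holds for that length alone. By FPKM averaged over 6 libraries, PRPF8 was highest with 82.0, followed by PRPF19 with 73.8, SNRPD2 with 66.8, SF3B4 with 66.0 and SF3B1 with 63.0, while PRPF40B was lowest with 1.61. The 7 Sm genes summed to 160, 146 and 118 FPKM in sh-NC and to 225, 275 and 156 FPKM in sh-IGF2BP3, or 141 ± 21.1 against 219 ± 59.97 (SD, n = 3 per group). With 3 against 3 libraries the smallest two-sided exact permutation p is 0.1, and the exact p for the Sm sum was 0.2. LSM1 to LSM8 summed to 92.7 ± 15.3 FPKM in sh-NC and 142 ± 32.7 in sh-IGF2BP3, and the 20 large factors to 664 ± 92.2 and 705 ± 42.0. All 47 genes together took 0.626%, 0.566% and 0.509% of the counts in sh-NC and 0.577%, 0.611% and 0.618% in sh-IGF2BP3, so the share of the library spent on them overlapped between groups.

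Partner genes of the spliceosome were examined through 6 lists with 83 tested genes, of which 58 were above 0 and 0 were called. At an unadjusted p under 0.05, 15 were higher and 3 lower, or 18.1% and 3.61%, beside 13.6% and 8.54% of all genes, with a median log2 fold change of 0.20. After correction 12 were higher and 1 lower, beside 6.86% and 3.59% of all genes, with a median of 0.24. Of 17 partners of the snRNPs and the tri-snRNP, 6 were higher and 0 lower at that threshold, with SART1, a tri-snRNP protein, at 0.77 and SNRNP70, the U1 70K protein, at 0.69, and 0.39 and 0.18 after correction. Of 13 partners of U2, 3 were higher, with U2AF2, which binds the polypyrimidine tract, at 0.80 and PUF60 at 0.73, and 0.38 and 0.34 after correction. Of 25 genes of the PRPF19 complex and the splicing steps 5 were higher, with DHX38 at 0.50 and XAB2 at 0.45, and 0.30 and 0.031 after correction. Of 16 genes of snRNP assembly 0 were higher or lower, with GEMIN7 at 0.87 and GEMIN4 at 0.45, and 0.57 and 0.29 after correction. GEMIN7 had low levels, 1.98, 1.24 and 1.38 CPM in sh-NC and 2.23, 4.51 and 1.65 CPM in sh-IGF2BP3. Its groups overlapped, and its SE was 0.42. Among 4 genes of U6 maturation, MEPCE, which caps 7SK RNA and binds U6, was measured at 18.6, 8.10 and 7.46 CPM in sh-NC and at 35.4, 42.3 and 19.3 CPM in sh-IGF2BP3, with a log2 fold change of 1.51 ± 0.34 (edgeR adjusted p = 0.103), and 1.02 after correction, and LARP7 had 0.24 and then 0.58. The 8 partners of the cytoplasmic LSM1 ring in mRNA decay had a median of the opposite sign, −0.35, with 3 lower and 0 higher at that threshold. XRN1, the 5′ to 3′ exonuclease, was measured at 43.1, 61.1 and 66.2 CPM in sh-NC and at 31.6, 29.4 and 37.8 CPM in sh-IGF2BP3, with no overlap and a log2 fold change of −0.79 ± 0.21 (edgeR adjusted p = 0.103), and DCP1A had −0.42. After correction the median of this list was 0.0021, and the log2 fold changes of XRN1 and DCP1A were −0.35 and −0.23.

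Promoter windows of 250 bases before to 50 after the start were matched in the RefSeq table (GRCh38.p14) for 38 of 47 members. The letters CCGGAAG, a core bound by ETS family factors, were present on either strand in 17 of 38 members, or 44.7%, beside 24.1% of 8672 protein-coding genes with a mean of at least 100 counts and 12.2% of 27305 genes in the table. The small and the large class did not stand apart, with 6 of 14 and 7 of 15 genes. The letters CCAAT were present in 17 of 38 members, beside 43.6% of the 8672 genes, and GGGCGG in 24 of 38, or 63.2%, beside 80.2%. Windows of a small Sm gene, of SF3B6, which held the most matches, and of a large factor are shown with each CCGGAAG or its reverse complement CTTCCGG in capitals. They lie at chr20:2470740-2471039 on the minus strand (SNRPB), chr2:24076277-24076576 on the minus strand (SF3B6) and chr20:63980882-63981181 on the plus strand (PRPF6).

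SNRPB: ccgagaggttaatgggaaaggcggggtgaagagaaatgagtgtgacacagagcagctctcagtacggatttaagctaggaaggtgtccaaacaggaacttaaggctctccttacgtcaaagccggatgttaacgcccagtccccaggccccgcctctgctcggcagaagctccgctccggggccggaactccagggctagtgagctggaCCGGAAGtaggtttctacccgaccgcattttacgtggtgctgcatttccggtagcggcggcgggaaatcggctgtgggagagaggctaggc
SF3B6: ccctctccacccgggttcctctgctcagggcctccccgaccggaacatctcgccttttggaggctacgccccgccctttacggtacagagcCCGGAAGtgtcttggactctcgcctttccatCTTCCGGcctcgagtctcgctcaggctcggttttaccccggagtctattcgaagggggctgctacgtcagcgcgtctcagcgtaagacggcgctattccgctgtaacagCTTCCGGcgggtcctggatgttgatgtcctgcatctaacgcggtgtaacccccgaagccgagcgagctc
PRPF6: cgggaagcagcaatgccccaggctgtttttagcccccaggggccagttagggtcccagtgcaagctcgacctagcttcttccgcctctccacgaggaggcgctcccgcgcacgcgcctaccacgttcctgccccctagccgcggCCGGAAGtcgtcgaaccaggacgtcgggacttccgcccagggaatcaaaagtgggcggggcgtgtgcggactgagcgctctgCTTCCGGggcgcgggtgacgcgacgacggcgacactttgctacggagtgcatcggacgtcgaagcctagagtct

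The windows held 1, 3 and 2 matches, and the genes had log2 fold changes of 0.91, 0.51 and 0.35. A match of letters is a description of these windows, not a measured binding site.

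Several members have processed copies whose rows could share reads with them. For SNRPG, 20 pseudogene rows, 10 of them with counts, held 5.80% as many counts as the gene itself, and for SNRPE the share was 3.01%. For SNRPF and SNRPC it was 0.993% and 0.510%, and for SNRPB, SNRPD2, LSM1 and LSM6 the named pseudogene rows held 0 counts. With every member that has a counted pseudogene row left out, the difference between the small and large class medians was 0.70. This left out SNRPE, SNRPF, SNRPG and LSM3 of the small class, with log2 fold changes of 0.69, 0.88, 0.63 and 0.42. It also left out PRPF38A, SF3A3 and SF3B4 of the large class, with 0.13, 0.15 and 0.28. The pseudogene rows of these large genes held only 0.091%, 0.23% and 0.016% as many counts. Both medians thus changed, and the part of shared reads was not tested. The hairpin against IGF2BP3 shared at most 11 consecutive bases with a transcript of any member, PRPF8, and the scrambled hairpin at most 8, with SNRPC.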

How the data were processed

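Whole-number counts per gene and FPKM values for 62710 Ensembl genes in 6 libraries were deposited by the authors, unnormalized in the case of the counts. Each FPKM value equals the deposited count divided by the library total and by 1 fixed length per gene. Per the labels, total RNA was prepared with a TruSeq kit. The submitters' processing notes name CASAVA and GRCh38; aligner, counter and use of strand are not given in the sources used here.

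The counts were fitted with edgeR 4.0.16 under R 4.3.3 (filterByExpr, TMM, quasi-likelihood test, Benjamini-Hochberg adjustment over 16753 genes), checked on simulated data. CPM used TMM-scaled totals, except for the sums of cell type markers and the limit for SNRPN, which used unscaled library totals. A call required an adjusted p under 0.05 and a 1.5-fold change, the study's thresholds. Alternatives were DESeq2 1.42.0, limma 3.58.1 on log2(FPKM + 1), other normalizations and filters, each library left out, a replicate block, and removal of each library's GC and length trends (splines, 5 degrees of freedom, GENCODE 29, GC known for 96.9% of genes). Values in every library are given for the 4 members of each role with the smallest p, for SNRPN, SF3B1 and PRPF8, and for members called in an alternative; for partner lists, 2 genes each. Members and lists were chosen with earlier results of these data known. The values of 1 member are not reported here, though it stays in the counts and medians.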

Additional observations from a re-analysis of the deposited data

How the results depend on the processing

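The median of the small genes stayed above 0 under every alternative run. With each library left out, with and without the GC and length trends, it ran from 0.34 without sh-IGF2BP3 2 to 0.83 without sh-IGF2BP3 3, and the small minus large difference from 0.27 to 0.82 without the same libraries. The large median ran from −0.017 without sh-NC 3 to 0.29 without sh-NC 1. Grouped by symbol alone, SNRP and LSM against SF3 and PRPF, the difference was 0.40. The number of members called was 0 in edgeR, 4 in DESeq2, 7 without a filter on low counts (in a fit that called 687 genes higher and 150 lower of 36335), and 0 to 15 with a library left out, the 15 without sh-NC 1. Members at an unadjusted p under 0.05 numbered 20, or 11 after removal of the principal transcript trends. With a library left out and no trend removed, they numbered from 9 without sh-IGF2BP3 2 to 27 without sh-NC 1. With the GC and length trends also removed, they numbered from 3 to 27 without the same libraries. Compared with the main fit, fewer of all genes reached that threshold in the fits that gave 11, 9 and 3. More of all genes reached it in the fits that gave 27. Same-numbered libraries did not deviate together, with correlations of −0.28, −0.19 and −0.04 between the groups, so the numbers were not taken as pairs. With the replicate number as a block the small median was 0.63, the large median 0.12 and 0 members were called. Among the genes given by library, sign changes were as follows. PRPF8 had 0.14 after removal of the length trend, 0.0067 with block plus trend removal and 0.030 by principal transcripts, where SF3B1 had 0.0037 and 0.013 in the latter pair of settings. SNRPB2 had −0.080 after removal of the length trend, −0.00018 on log2(FPKM + 1) with and without a filter, and −0.00045 with a pseudocount of 0.1. With a library left out and no trend removed, the only ranges that crossed 0 were −0.17 to 0.15 for PRPF8 and −0.14 to 0.26 for SNRPB2. Taken over the fits with and without trend removal together, the ranges that crossed 0 were −0.45 to 0.0053 for LSM11, −0.016 to 0.70 for PRPF19 and −0.061 to 0.52 for PRPF6. The same held for PRPF8 (−0.19 to 0.20), SF3A2 (−0.070 to 0.95), SF3B1 (−0.46 to 0.13) and SNRPB2 (−0.14 to 0.55). The causes were not tested. Precision is limited by the 3 libraries in each group.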
